A study of Rattus norvegicus with 26 samples.

Results

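High-dose TCDD was compared with no or almost no TCDD in primary hepatocytes, the main metabolic cells of the liver, taken from female Sprague Dawley rats of the strain Crl:CD(SD)IGS BR. The comparison used 9 of the 26 arrays of the series, chosen by their labels for chemical, log10 molar dose and pool of animals. The high-dose cultures, 5 arrays, received TCDD for 48 hours at 1 nM (-9, pool 2), 10 nM (-8, both pools) or 316 nM (-6.5, both pools). The baseline cultures, 4 arrays, received the vehicle, 0.5% DMSO, or TCDD at 0.01 pM (-14), in both pools. Each pool mixed cells of 3 animals and is 1 biological unit. Nothing in the labels says that arrays of 1 pool came from separate animals, so every p-value measures the spread between arrays and only 2 pools stand behind it. Values are log2 expression values, 1 per probe set, and a change is the high-dose level minus the baseline level with the pool held constant.

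TCDD (2,3,7,8-tetrachlorodibenzo-p-dioxin) is a persistent dioxin that binds the aryl hydrocarbon receptor (AhR). In unexposed cells AhR sits in the cytoplasm with heat shock proteins. Once a ligand is bound it moves to the nucleus, pairs with Arnt and binds DNA at a short core sequence, and genes for drug-metabolizing enzymes near such sites are transcribed. In rat liver this response is known for the strong induction of Cyp1a1 and for changes in the enzymes of steroid, thyroid hormone and fatty acid metabolism.

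The cells had the profile of hepatocytes. All 7 measured hepatocyte markers (Alb, Ttr, Apoa1, Ahsg and others) lay at or above the 84.9th percentile of all probe sets. Their mean level was 10.59 to 11.03 in high-dose arrays and 11 to 11.26 in baseline arrays, with 0 of 7 called. In 4 measures of array quality the groups did not pass an exact permutation test within pools over 60 arrangements (two-sided, 4 measures, Benjamini-Hochberg adjusted p 0.423 to 0.55). The median array value was 3.52 to 3.85 in high-dose arrays and 3.53 to 3.93 in baseline arrays. In pool 2 the 316 nM array stood nearer to baseline than its neighbours did. The 0.01 pM array of pool 2 stood nearer to the high-dose group than vehicle did for probe sets called higher (median 6.12 against 5.76). For probe sets called lower its median did not (8.17 against 8.11). Without both of these arrays 152 probe sets were called by limma, 84 higher and 68 lower. The called members were then as many as given for the AhR, P450, conjugation and chemokine lists, while falls numbered 0 for glucose handling and 4 for hepatocyte genes.

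**Figure D1:**
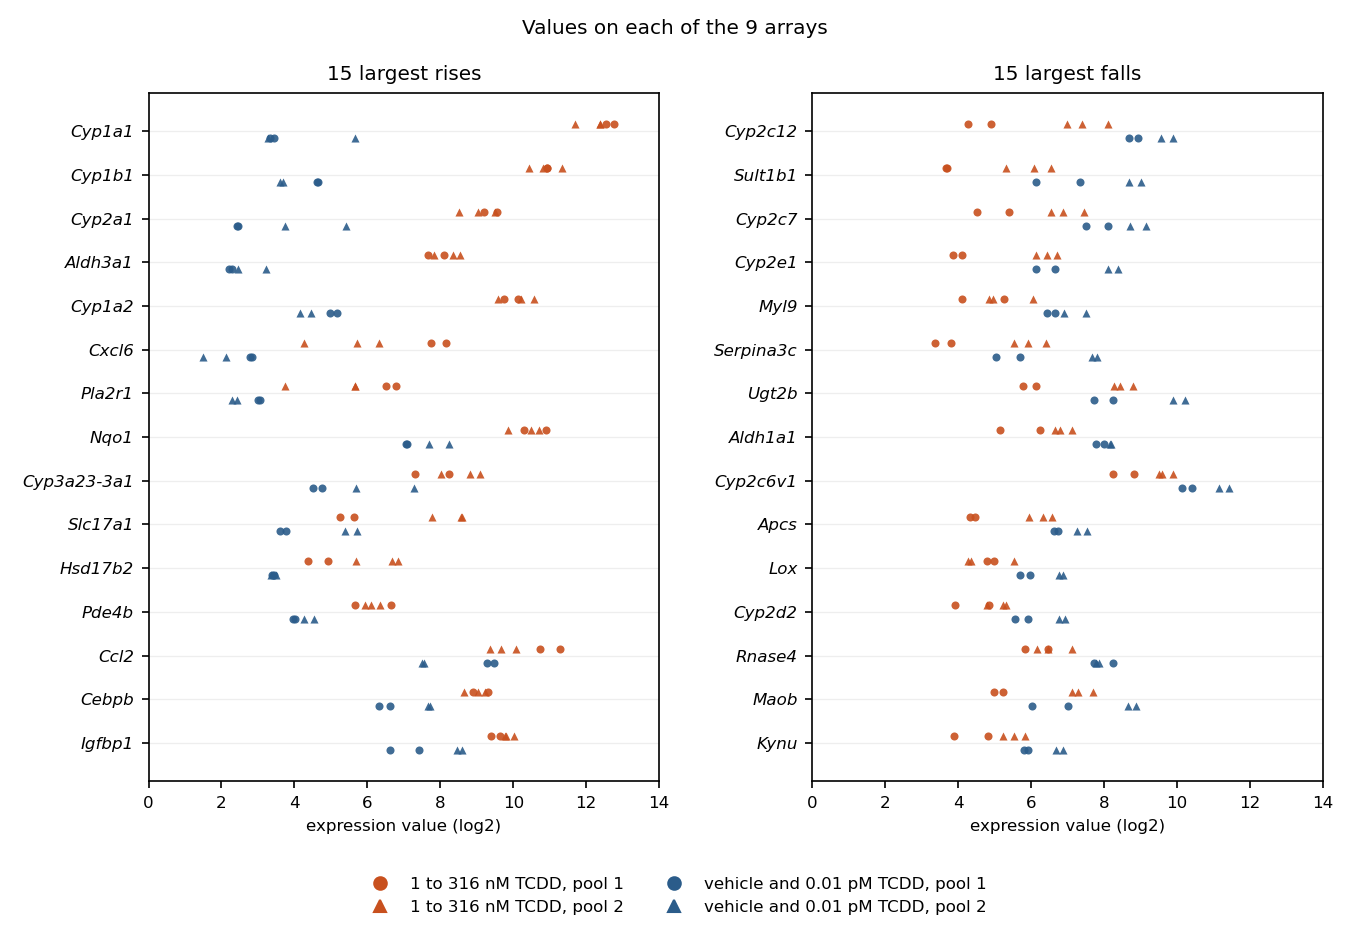
Expression value (log2) on each of the 9 arrays for the 15 genes that rose most (left) and the 15 that fell most (right) with high-dose TCDD. Orange symbols are cultures at 1 to 316 nM TCDD, blue symbols are vehicle and 0.01 pM cultures, circles are pool 1 and triangles pool 2. Orange and blue do not overlap for 13 of the 15 rises and 9 of the 15 falls, and within a pool they overlap for none of these 30 genes. These genes were picked for their change on the same arrays, which favours such gaps. Over all 8740 probe sets, all high-dose arrays lay above all baseline arrays for 1.28% and below them for 1.59%. Within either pool 9.43% had no overlap.

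High-dose TCDD raised and lowered small sets of genes, and the called rises were larger in size than the called falls. Of 8740 probe sets, 191 (2.19%) passed an adjusted p of 0.05 in limma with pool as a block, 84 of them higher (0.961%) and 107 lower (1.22%). Taking 1 probe set per gene, 103 of 4736 genes passed (2.17%), 41 higher (0.866%) and 62 lower (1.31%). At an unadjusted limma p below 0.05 there were 1132 of the 8740 probe sets. The median size of the called changes was 1.61 log2 for rises and 1.01 log2 for falls, and the median change of all probe sets was -0.05. Of the risen probe sets 63 changed at least 2-fold and 28 at least 4-fold, and of the fallen ones 56 and 8 did. The probe sets that rose had a median of 5.75 at baseline and 8.22 at high dose, and those that fell 7.55 and 6.15. Both levels enter the calls, so this order is not independent of them. Of 41 called genes with several probe sets, 34 moved in the same direction on all of them, and 0 genes were called in both directions. The count rested on single arrays: among pool 2 arrays, removal of 10 nM left 116 calls, of 1 nM left 122 and of vehicle left 127. Without the pool term 49 probe sets passed (39 higher and 10 lower), 43 passed in pool 1 alone and 843 in pool 2 alone, and no called probe set changed sign in any of these fits.

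The sequences around the start of some of these genes, risen and fallen, hold the letters that AhR and Arnt are known to bind. So do those of many other genes on the array. The core GCGTG and the longer form TNGCGTG (N is any base, both strands, each longer match also holds the core) were searched in RefSeq promoter windows of the rat build GRCr8, from 250 bases before to 50 bases after a gene's start. TNGCGTG occurred in 4 of 28 windows of risen genes (14.3%) and in 5 of 51 windows of fallen genes (9.8%), against 7.52% of 3869 windows of genes on the array and 5.12% of all 27457 windows. The core alone occurred in 46.4%, 31.4%, 43.5% and 31.1% of these sets. Its share was thus close to that of genes on the array for risen genes and below it for fallen genes. The windows with TNGCGTG were few, and the shares were not tested against each other. Among the most changed genes, 3 windows held TNGCGTG and are shown 5' to 3' on the gene's strand with the match in capitals. They belong to Cyp1b1 (chr6:21094315-21094614, plus strand, match at -22), Pla2r1 (chr3:65422286-65422585, minus strand, match at +28) and Rnase4 (chr15:26786037-26786336, plus strand, match at -86), of which Cyp1b1 and Pla2r1 rose and Rnase4 fell. Cyp1a1, Aldh3a1, Hsd17b2, Ccl2, Myl9, Serpina3c, Cyp2c6v1 and Lox were not analysed in this way.
Cyp1b1: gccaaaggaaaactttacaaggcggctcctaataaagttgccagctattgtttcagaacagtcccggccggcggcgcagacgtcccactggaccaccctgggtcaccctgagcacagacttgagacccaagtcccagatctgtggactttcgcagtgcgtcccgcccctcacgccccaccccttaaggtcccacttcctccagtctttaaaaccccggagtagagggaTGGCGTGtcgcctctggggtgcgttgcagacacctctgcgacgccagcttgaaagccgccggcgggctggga
Pla2r1: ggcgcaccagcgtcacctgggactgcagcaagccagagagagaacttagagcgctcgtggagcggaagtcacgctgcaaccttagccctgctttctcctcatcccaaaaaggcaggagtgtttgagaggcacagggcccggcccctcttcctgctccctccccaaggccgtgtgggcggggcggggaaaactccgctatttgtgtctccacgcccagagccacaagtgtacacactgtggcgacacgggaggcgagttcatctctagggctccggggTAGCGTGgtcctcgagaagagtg
Rnase4: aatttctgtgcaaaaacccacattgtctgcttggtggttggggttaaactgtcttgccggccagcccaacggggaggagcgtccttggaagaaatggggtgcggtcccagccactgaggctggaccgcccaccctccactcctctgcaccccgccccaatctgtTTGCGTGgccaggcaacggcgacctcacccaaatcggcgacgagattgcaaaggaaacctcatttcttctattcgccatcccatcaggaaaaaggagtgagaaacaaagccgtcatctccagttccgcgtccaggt
The window of Nqo1, a classic AhR target, held 1 GCGTG and 0 TNGCGTG. A match is a description of these letters, and binding was not measured. Sites outside the windows were not searched.

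Classic AhR target genes were among the genes that rose most. Of 7 measured members of the AhR battery 5 rose and 0 fell, against 0.866% of all genes that rose, and the median change of the list was 5.39 log2, against -0.05 for all genes. The choice of this list followed from earlier results on these arrays and is no independent evidence of its direction. Cyp1a1, the P450 that oxidizes polycyclic aromatic hydrocarbons, read 12.53 and 12.77 in pool 1 at 10 and 316 nM and 12.39, 12.37 and 11.69 in pool 2 at 1, 10 and 316 nM. In baseline cultures it read 3.45 and 3.33 in pool 1 and 3.28 and 5.66 in pool 2, each time vehicle and then 0.01 pM. The groups did not come near each other, and among the baseline arrays the 0.01 pM array of pool 2 was the highest. The change was 8.40 ± 0.52 log2 (SE of the limma model), 337-fold, with an adjusted p of 0.000192. Its other baseline values, 3.28 to 3.45, were below the median of all values, 3.71, so this fold started close to the dim end of the array.

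Cyp1b1, a P450 that hydroxylates estradiol, read 10.93, 10.93, 10.82, 11.35 and 10.43 in the same order of high-dose arrays, against 4.66, 4.63, 3.7 and 3.61 in baseline arrays. All high-dose arrays stood far above all baseline arrays. The change was 6.79 ± 0.23 (111-fold, adjusted p = 3.41e-08), and all 4 of its probe sets rose, by 5.38 to 7.42. Cyp1a2, the P450 that oxidizes caffeine and aromatic amines, read 9.76, 10.12, 10.56, 10.22 and 9.57 at high dose, against 5.17, 4.97, 4.14 and 4.45 at baseline. It rose by 5.39 ± 0.25 (adjusted p = 3.03e-07), and its other 2 probe sets rose by 6.46 and 6.88.

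Aldh3a1, an aldehyde dehydrogenase that is almost silent in normal liver, had 7.66, 8.09, 8.54, 8.35 and 7.82 at high dose, against 2.30, 2.21, 2.45 and 3.21 at baseline. Its baseline values were below the median of all values, 3.71, so its change of 5.51 ± 0.20 (adjusted p = 5.65e-08) started from a signal close to the dim end of the array. Nqo1, a quinone reductase, had 10.89, 10.29, 10.71, 10.49 and 9.86, against 7.05, 7.08, 7.70 and 8.25. Its baseline was well above the median of all values, and it rose by 2.90 ± 0.28, 7.48-fold (adjusted p = 0.000391), while its second probe set changed by 0.99 and did not pass. Ugdh, which makes the sugar donor for glucuronidation, and the antioxidant regulator Nfe2l2 did not pass, with changes of 0.58 (95% interval 0.11 to 1.04) and 0.59 (0.18 to 0.99). Cyp1a1, Cyp1b1, Aldh3a1, Cyp1a2 and Nqo1 were the 5 named genes called under each of 23 alternative settings.

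Other members of the same known response lie on probe sets that list several related genes, so no single gene can be named from them. Of 12 probe sets that list only Ugt1a genes, glucuronosyltransferases that share most of their sequence, 4 rose by 2.44 to 3.80 and 1 fell by 1.53. A probe set for Gsta5 and Gsta2, subunits of glutathione S-transferase, rose by 3.86 ± 0.37, with means of 12.40 ± 0.37 at high dose and 8.45 ± 1.12 at baseline (SD, n = 5 and 4). A probe set for Cyp2a2 and Cyp2a1 rose by 3.72 ± 0.34 (limma adjusted p = 0.000394).

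The receptor's own transcript rose and those of its partners did not pass. Of 6 measured genes of the AhR complex 1 rose and 0 fell, against 0.866% and 1.31% of all genes. Ahr read 6.08, 6.04, 5.52, 5.52 and 5.02 at high dose, against 5.0, 4.96, 3.89 and 4.53 at baseline. The 2 groups met closely, since the lowest high-dose array lay just above the highest baseline array, and the change within pools was 1.11 ± 0.16, 2.16-fold (limma adjusted p = 0.00411). A second Ahr probe set changed by 2.06 with an adjusted p of 0.0879, and the 2 others by -0.01 and -0.05. Arnt, the partner in DNA binding, changed by 0.06 ± 0.08, and the chaperone Hsp90ab1 by -0.21 ± 0.12.

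Among the P450s that make up the normal liver set, members of different subfamilies moved in opposite directions. Of 26 measured, 3 rose and 6 fell, against 0.866% and 1.31% of all genes. Cyp2a1, which hydroxylates testosterone and is predominant in female rat liver, read 9.19, 9.56, 9.49, 9.03 and 8.52 at high dose, against 2.44, 2.45, 3.74 and 5.42 at baseline. It rose by 5.57 ± 0.57 (limma adjusted p = 0.00236), by 6.93 in pool 1 and 4.43 in pool 2. The baseline arrays of pool 2, above all the one at 0.01 pM, stood higher than those of pool 1. The pool 1 values of 2.44 and 2.45 were below the median of all values, 3.71, so the change there started from a dim signal. Cyp2a2 rose by 1.53 ± 0.21 and Cyp2f4 by 1.36 ± 0.18.

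The falls lay in the Cyp2c, Cyp2d, Cyp2e and Cyp2b subfamilies. Cyp2c12, a steroid sulfate hydroxylase that is typical of female rat liver, read 4.26 and 4.89 in pool 1 and 7.4, 6.98 and 8.10 in pool 2 at high dose. At baseline it read 8.93 and 8.69 in pool 1 and 9.56 and 9.90 in pool 2. No arrays of the groups overlapped, and pool 1 went lower than pool 2. The fall was -3.14 ± 0.41, 8.83-fold (limma adjusted p = 0.00494), and its second probe set fell by 2.50. Cyp2c7, a retinoid-metabolizing P450 that is also higher in female rat liver, had 5.4, 4.51, 6.55, 6.87 and 7.44 against 8.11, 7.49, 8.71 and 9.16. It changed by -2.37 ± 0.28, and 3 further probe sets that cannot tell it from Cyp2c7l1 changed by -1.83 to -2.13.

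Cyp2e1, which oxidizes ethanol, read 4.09 and 3.85 in pool 1 and 6.43, 6.12 and 6.72 in pool 2 at high dose, against 6.13 and 6.66 in pool 1 and 8.11 and 8.38 in pool 2 at baseline. The groups overlapped across the pools and not within either of them. Its change was -2.10 ± 0.20 (limma adjusted p = 0.000236), and all 3 of its probe sets fell. Cyp2c6v1 changed by -1.68 ± 0.16, Cyp2d2 by -1.56 ± 0.21 and Cyp2b3 by -1.26 ± 0.20. The other 17 members did not pass, and the growth hormone dependent male form Cyp2c11, with 3.68 at high dose and 3.81 at baseline, was near the median of all values in both groups. The falls needed the pool as a block: without it 2 P450s rose and 0 fell.

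**Figure D2:**
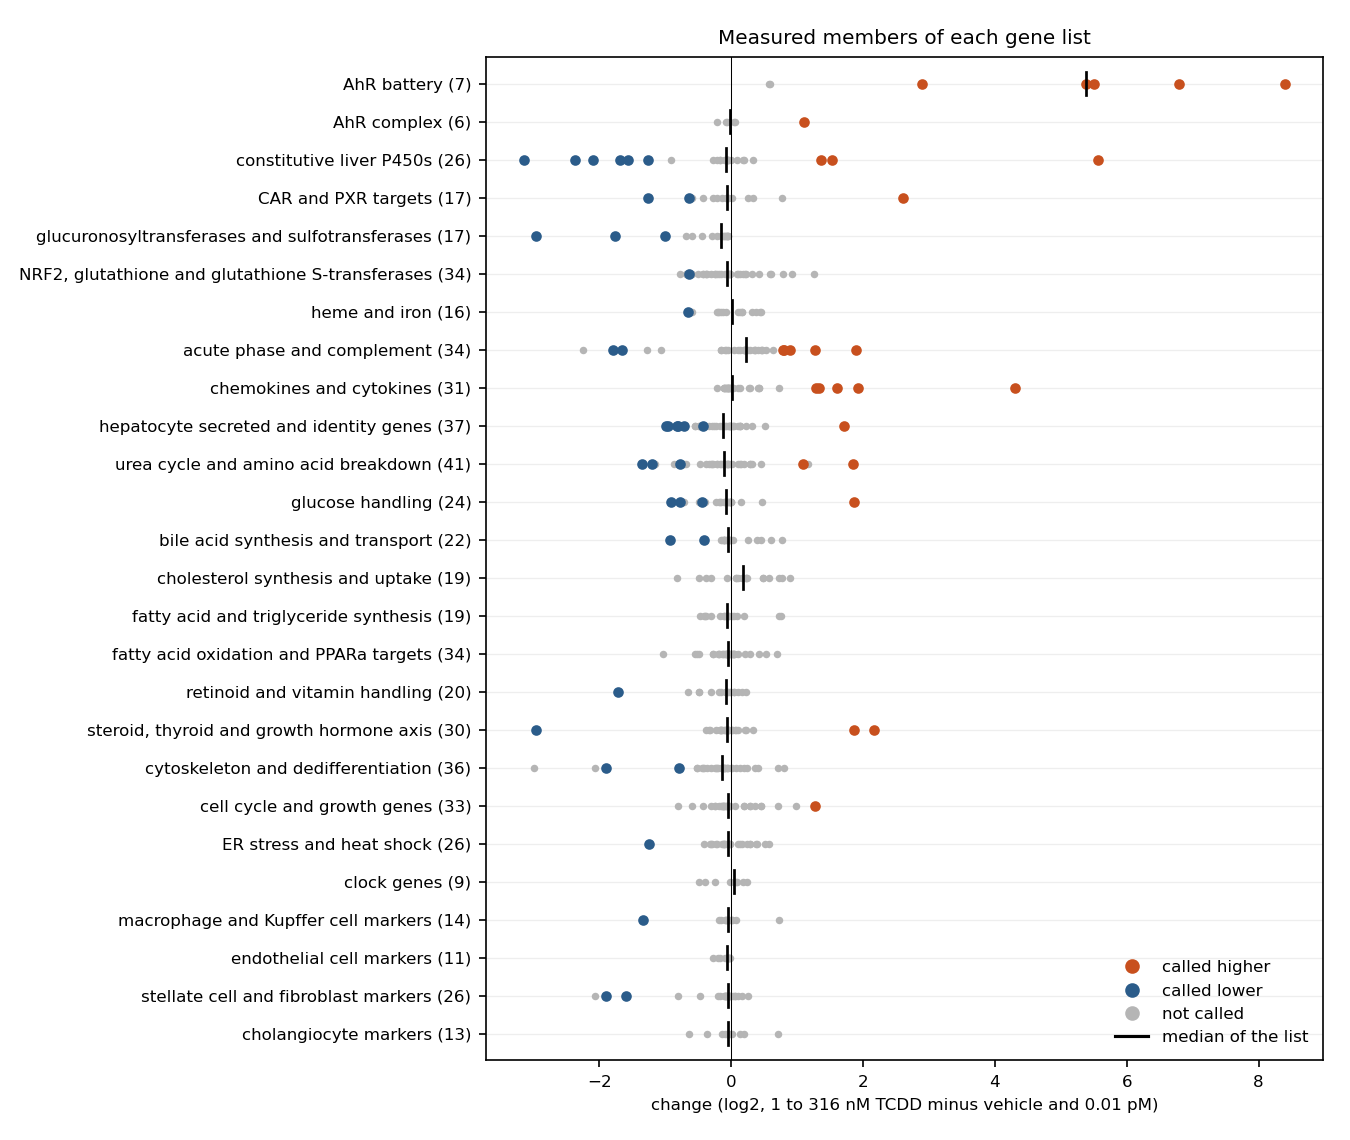
Change (log2, high-dose minus baseline cultures) of each measured member of the 26 gene lists, 1 point per gene, with the number measured in brackets. Orange points were called higher and blue points lower, grey points did not pass, and the black bar is the median of the list. The AhR battery is the list with its median at 5.39, and the other medians lie between -0.16 and 0.22.

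The list drawn up for CAR and PXR, the nuclear receptors that answer to phenobarbital and to steroids and drugs, gave mixed calls. Of 17 measured, 1 rose, 2 fell (Cyp2b3 and Ephx1) and 14 did not pass, where 0.866% of all genes rose and 1.31% fell. Cyp2b3 is also on the list of normal liver P450s, so its fall is the same one counted there. Whether Cyp2b3 answers to these receptors was not tested. Cyp3a23-3a1, the PXR-inducible form of rat Cyp3a, read 8.24, 7.30, 9.08, 8.82 and 8.03 at high dose, against 4.77, 4.5, 5.69 and 7.27 at baseline. The lowest high-dose array was just above the highest baseline array, again the one at 0.01 pM in pool 2. Cyp3a23-3a1 rose by 2.60 ± 0.39 (limma adjusted p = 0.0083). A second probe set of this gene rose by 1.60, and the others, with changes of 0.81 and 0.78, did not pass. Cyp2b2, a P450 induced by phenobarbital, changed by -0.27 ± 0.10 and did not pass. Ephx1, the microsomal epoxide hydrolase, fell by 0.64, but the call was lost without any one of 6 of the 9 arrays (adjusted p 0.0509 to 0.114) and held without the vehicle, 1 nM or 316 nM array of pool 2.

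Glucuronosyltransferases and sulfotransferases with a probe set of their own fell or did not pass. Of 17 measured, Ugt1a5 among them, 0 rose and 3 fell, against 0.866% and 1.31% of all genes. All 17 estimates were below 0 with a median of -0.16, but the median over all genes was also below 0, at -0.05. Sult1d1 and Sult1c3, dimmer than the median of all values in both groups, changed by -0.04 and -0.06. Sult1b1, a sulfotransferase for thyroid hormones and phenols, read 3.67 and 3.69 in pool 1 and 6.08, 5.30 and 6.54 in pool 2 at high dose. At baseline it read 7.33 and 6.13 in pool 1 and 8.69 and 9.02 in pool 2. Within each pool every high-dose array was lower than both baseline arrays, and the fall was -2.96 ± 0.29, 7.79-fold (limma adjusted p = 0.000401). Ugt2b changed by -1.76 ± 0.19 and the phenol sulfotransferase Sult1a1 by -1.0 ± 0.17 (adjusted p = 0.0589 for Sult1a1 without the 0.01 pM array of pool 2). With no pool term 0 of the 17 passed.

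Genes of the antioxidant response with a probe set of their own, beyond Nqo1, mostly did not pass. Of 34 measured genes of the NRF2 and glutathione list 0 rose and 1 fell, Ephx1, while 13 had an unadjusted p below 0.05. Of all genes 0.866% rose and 1.31% fell, and 1132 of 8740 probe sets had such an unadjusted p. The list had 1 rise and 1 fall when pool 1 at 10 nM or pool 2 at 316 nM was dropped, and 0 of each when either 0.01 pM array, pool 1 at 316 nM or pool 2 at 10 nM was dropped. Hmox1, which breaks down heme, changed by 0.32 ± 0.18 and Txnrd1, a thioredoxin reductase, by 0.23 ± 0.13. Gsta4, Sod2 and Gpx2 changed by 0.78, 1.26 and -0.69, with limma adjusted p of 0.0543, 0.0652 and 0.0784. List members on shared probe sets are not among the 34. Of such probe sets, that of Gsta5 and Gsta2 rose by 3.86 ± 0.37 and that of Mt1m and Mt2A by 0.80 ± 0.17. In the heme and iron list 1 of 16 measured genes fell, Alad of heme synthesis, with -0.65 ± 0.13. That call was lost without any one of 6 arrays and held without the 0.01 pM, 10 nM or 316 nM array of pool 1.

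A few signalling molecules that recruit or act on other cells rose. Of 31 measured chemokines, cytokines and growth factors 5 rose, 0 fell and 26 did not pass, against 0.866% of all genes that rose, and the list median was 0.01. Cxcl6, a neutrophil attractant, read 7.75 and 8.15 in pool 1 and 5.71, 6.33 and 4.27 in pool 2 at high dose, against 2.85, 2.77, 1.5 and 2.13 at baseline. All high-dose arrays were above all baseline arrays, and the 316 nM array of pool 2 was the lowest of them. The rise was 4.31 ± 0.50 (limma adjusted p = 0.00594) from baseline values in the dim range of the array. Ccl2, which attracts monocytes, read 10.74, 11.29, 9.66, 10.07 and 9.37, against 9.27, 9.48, 7.55 and 7.49. It rose by 1.93 ± 0.19 within pools, although the highest baseline array of pool 1 lay above the lowest high-dose array of pool 2.

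Cx3cl1, a membrane-bound chemokine, rose by 1.61 ± 0.26, and Ccl20, which attracts cells bearing Ccr6, by 1.29 ± 0.22. Nrg1, a ligand of the ErbB receptors, rose by 1.34 ± 0.21 (limma adjusted p = 0.00587), and 3 of its 7 probe sets were called. The inflammatory cytokines Il1b, Il6 and Tnf changed by -0.06 ± 0.08, -0.09 ± 0.08 and 0.13 ± 0.05 and did not pass. Their signals were low in both groups, with means of 4.29, 4.01 and 3.13 at high dose and 4.42, 4.15 and 3.06 at baseline. The median of all values was 3.71. Without the pool term 2 of the 31 genes rose.

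Acute phase and complement genes split. Of 34 measured, 5 rose, 2 fell and 27 did not pass, where 0.866% of all genes rose and 1.31% fell. The list median was 0.22. Cebpb, a transcription factor that drives acute phase genes, read 9.31, 8.91, 9.02, 9.22 and 8.65 at high dose, against 6.63, 6.31, 7.71 and 7.66 at baseline. The high-dose arrays lay close together and above all baseline arrays, and the rise was 1.90 ± 0.27 (limma adjusted p = 0.00414), with 2.64 in pool 1 and 1.28 in pool 2. Lbp, which binds endotoxin, rose by 1.28 ± 0.24, the interleukin-1 receptor Il1r1 by 0.90 ± 0.16, the C1 inhibitor Serping1 by 0.81 ± 0.16 and the fibrinogen chain Fgg by 0.78 ± 0.13. Serpina3c, a serine protease inhibitor, fell by 1.79 and the pentraxin Apcs by 1.65. A probe set that lists Mug1, Mug2, Cpamd8 and Mug1l1, which are mostly protease inhibitors of rat plasma, changed by -1.85 ± 0.27, whereas the probe set of Mug1 alone, with -2.24 ± 0.67, did not pass. Without the 10 nM array of pool 2 the list had 2 rises and 2 falls.

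Secreted proteins and other genes that mark hepatocytes gave mostly small changes. Of 37 measured, 1 rose, 6 fell and 30 did not pass, with a median of -0.13. Of all genes 0.866% rose and 1.31% fell. Pon1, the paraoxonase carried by high-density lipoprotein, read 10.70, 10.61, 11.02, 10.63 and 9.91 at high dose, against 8.61, 8.81, 8.88 and 9.12 at baseline. The groups were clearly apart, and all 3 Pon1 probe sets rose, the named one by 1.71 ± 0.21 (limma adjusted p = 0.00136). The 6 that fell were Ambp (-0.82 ± 0.12), Asgr2, a chain of the asialoglycoprotein receptor (-0.72 ± 0.10), and the apolipoproteins Apoc3 (-0.81 ± 0.15), Apoa4 (-0.95 ± 0.18), Apoe (-0.42 ± 0.09) and Apoc1 (-0.98 ± 0.22). Albumin changed by -0.23 ± 0.12 and the hepatocyte regulator Hnf4a by 0.32 ± 0.18, and neither passed. The number of falls was 2 when pool 2 at 10 nM was dropped and 3 when pool 2 at 1 nM, either vehicle array or pool 1 at 316 nM was dropped, and Apoc3 had an adjusted p of 0.05, just above the threshold, without the 10 nM array of pool 2.

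Intermediary metabolism changed at single genes. Of 41 measured genes of the urea cycle and amino acid breakdown 2 rose and 3 fell, against 0.866% and 1.31% of all genes. Hal, which starts histidine breakdown, rose by 1.85 ± 0.25 and Tat, which starts tyrosine breakdown, by 1.09 ± 0.18. The other probe sets of Hal changed by 0.21 and 0.02 and did not pass. Kynu of tryptophan breakdown fell by 1.35, the urate-degrading Uox by 1.2 and Glud1, a glutamate dehydrogenase, by 0.77. Without the vehicle, 1 nM or 10 nM array of pool 2 the list had 1 fall. Uox was not called without any one of those 3 arrays, the 0.01 pM array of pool 1 or its 316 nM array (adjusted p 0.0509 to 0.0764). Cps1, where nitrogen enters the urea cycle, changed by -1.16 ± 0.26 and just missed the threshold (adjusted p = 0.0547).

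Of 24 measured genes of glucose handling 1 rose and 3 fell, against 0.866% and 1.31% of all genes. Igfbp1, a binding protein of insulin-like growth factors, read 9.65, 9.39, 10.01, 9.79 and 9.77 at high dose, against 6.61, 7.41, 8.59 and 8.45 at baseline. No arrays overlapped between the groups. It rose by 1.87 ± 0.25 (limma adjusted p = 0.00308), more in pool 1, where it had been lower. Slc37a4, the glucose-6-phosphate transporter, fell by 0.91, the glucose transporter Slc2a2 by 0.78 and the glycogen synthase Gys2 by 0.44. Slc2a2 was not called without the vehicle, 0.01 pM or 1 nM array of pool 2 (adjusted p 0.0656 to 0.0769), and the list had 1 fall in each of these fits. Gys2 was called without the vehicle or the 10 nM array of pool 1 and lost without each of the other 7.

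Bile acid genes gave 2 small falls among 22 measured, where 1.31% of all genes fell. The uptake transporter Slc10a1 fell by 0.41 and the bile acid reductase Akr1d1 by 0.93. Both were fragile: Slc10a1 was lost without any one of 7 arrays (adjusted p 0.0656 to 0.166) and held without the vehicle or 10 nM array of pool 1, and Akr1d1 was lost without any one of 6 (0.0629 to 0.167) and held when pool 2 vehicle, pool 1 at 0.01 pM or pool 1 at 10 nM was dropped. With pool 2 at 316 nM dropped, the list had 1 rise and 0 falls. Cyp7a1, the first step of bile acid synthesis, changed by -0.10 ± 0.09.

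No member of the lists for cholesterol synthesis and uptake (19 measured), fatty acid and triglyceride synthesis (19) or fatty acid oxidation (34) passed limma at an adjusted p of 0.05. At an unadjusted p below 0.05 there were 7 higher and 2 lower, 2 higher and 1 lower, and 2 higher and 6 lower members of these lists. Over all probe sets 1132 of 8740 had such a p. Insig1, a brake on cholesterol synthesis, changed by 0.57 (95% interval 0.18 to 0.95), the fatty acid desaturase Scd2 by 0.76 (0.24 to 1.27) and the peroxisomal carnitine transferase Crot by 0.70 (0.30 to 1.09). Scd2 passed without the 316 nM array of pool 1 (adjusted p = 0.041). Among 9 clock genes 0 passed (1 fell without the vehicle array of pool 1) and 3 were lower at an unadjusted p below 0.05, and Bmal1 changed by -0.48 (-0.83 to -0.14).

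Retinoid and hormone genes gave a few large changes. Aldh1a1, which makes retinoic acid, read 6.25, 5.15, 6.78, 6.66 and 7.13 at high dose, against 7.79, 7.99, 8.19 and 8.17 at baseline. Its baseline arrays lay within 0.4 of each other and above all high-dose arrays, and it was the 1 of 20 measured retinoid and vitamin genes that fell, by 1.72 (limma adjusted p = 0.00469). Without the 316 nM array of pool 2 that list had 2 falls. Of 30 measured genes of the steroid, thyroid and growth hormone list 2 rose, Hsd17b2 and Igfbp1, and 1 fell, Sult1b1. Beside both lists stand 0.866% of all genes that rose and 1.31% that fell. Hsd17b2, which inactivates estradiol and testosterone, read 4.91, 4.36, 6.83, 6.68 and 5.68, against 3.39, 3.43, 3.50 and 3.36. It rose by 2.17 ± 0.40 (limma adjusted p = 0.0372), by 1.22 in pool 1 and 2.96 in pool 2. All its baseline values were below the median of all values, 3.71, so their flatness is that of a dim signal. It was called without the 316 nM array of pool 1 but not without any other 1 array (adjusted p 0.06 to 0.141).

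Further genes among the 15 largest rises belong to none of the lists. Pla2r1, a receptor for secretory phospholipases, read 6.52, 6.79, 5.67, 5.66 and 3.73, against 3.01, 3.07, 2.29 and 2.43. Its baseline values were all below the median of all values, 3.71. The 316 nM array of pool 2 stood well below the other 4 high-dose arrays. The rise was 3.10 ± 0.45 (adjusted p = 0.018) and was lost without any one of 7 arrays (0.0529 to 0.0784), all but the 0.01 pM and 316 nM arrays of pool 2. Slc17a1, a phosphate and urate transporter, rose by 2.30 ± 0.25, and the cAMP phosphodiesterase Pde4b by 1.93 ± 0.20, on 1 of 3 and 2 of 4 probe sets that passed. Among the falls, the ribonuclease Rnase4 changed by -1.51 ± 0.24 and the monoamine oxidase Maob by -1.40 ± 0.22.

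Stress and growth genes gave single calls, where 0.866% of all genes rose and 1.31% fell. Jund, a subunit of AP-1, was the 1 of 33 measured cell cycle and growth genes that rose (1.27 ± 0.26), and Nupr1, a small stress-induced chromatin protein, was the 1 of 26 stress genes that fell (-1.24 ± 0.24). Jund was not called when either vehicle array, pool 1 at 0.01 pM or pool 2 at 1 or 10 nM was dropped (adjusted p 0.0709 to 0.101), and Nupr1 not without the vehicle, 1 nM or 10 nM array of pool 2 (0.0629 to 0.0709). The growth list had 2 rises without either pool 2 array that stood apart.

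A few markers of other liver cells fell. Above the median of all values were 16 of 26 stellate, 7 of 13 cholangiocyte, 6 of 14 macrophage and 2 of 11 endothelial markers. Of 26 stellate cell and fibroblast markers 2 fell and 0 rose, against 1.31% and 0.866% of all genes. Their mean level was 4.30 to 4.52 over high-dose arrays and 4.61 to 4.76 over baseline arrays. Myl9, a light chain of smooth muscle myosin, read 4.09, 5.25, 4.84, 4.96 and 6.04, against 6.65, 6.43, 7.51 and 6.89, and fell by 1.90. It had an adjusted p of 0.0518 without the vehicle array of pool 2. Lox, a collagen crosslinker, fell by 1.59 and was lost without any one of 6 arrays (adjusted p 0.0515 to 0.14), holding when pool 1 vehicle, pool 1 at 316 nM or pool 2 at 316 nM was dropped. The other probe sets of Lox changed by -2.86, -0.57 and -0.06 and did not pass. Of the same list, the matrix protein Sparc averaged 11.80 at high dose and 11.74 at baseline, the smooth muscle protein Tagln 8.81 and 10.87 (adjusted p = 0.0698), and the collagen Col3a1 4.41 and 4.40. Among the lowest were Col1a2 with 2.28 and 2.37 and the intermediate filament Des with 1.65 and 1.71. The cytoskeleton list, which holds Myl9, had 2 falls among 36, the other being S100a10 (-0.79 ± 0.17), which was called without pool 1 at 10 nM or pool 2 at 316 nM and lost without each of the other 7 arrays. Its falls numbered 4 without pool 2 at 316 nM.

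Lyz2, a lysozyme of macrophages, read 6.43, 6.59, 7.66, 7.46 and 8.11, against 8.25, 8.28, 8.84 and 8.60, and fell by 1.33 (limma adjusted p = 0.00526). It was the 1 called gene of 14 macrophage markers, whose mean was 3.65 to 3.98 in high-dose arrays and 3.74 to 4.10 in baseline arrays, with Csf1r, Clec4f and Itgam among the 8 below the median of all values and Ptprc and Cd14 among the 6 above it. Of 11 endothelial and 13 cholangiocyte markers 0 passed, with 2 lower, and 1 higher and 2 lower, at an unadjusted p below 0.05. Over all 8740 probe sets 1132 had such a p, and 1.31% of all genes were called lower. In such bulk cultures fewer cells of a type and less RNA per cell cannot be told apart. What these markers contribute to the chemokine and matrix genes was not tested.

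**Figure D3:**
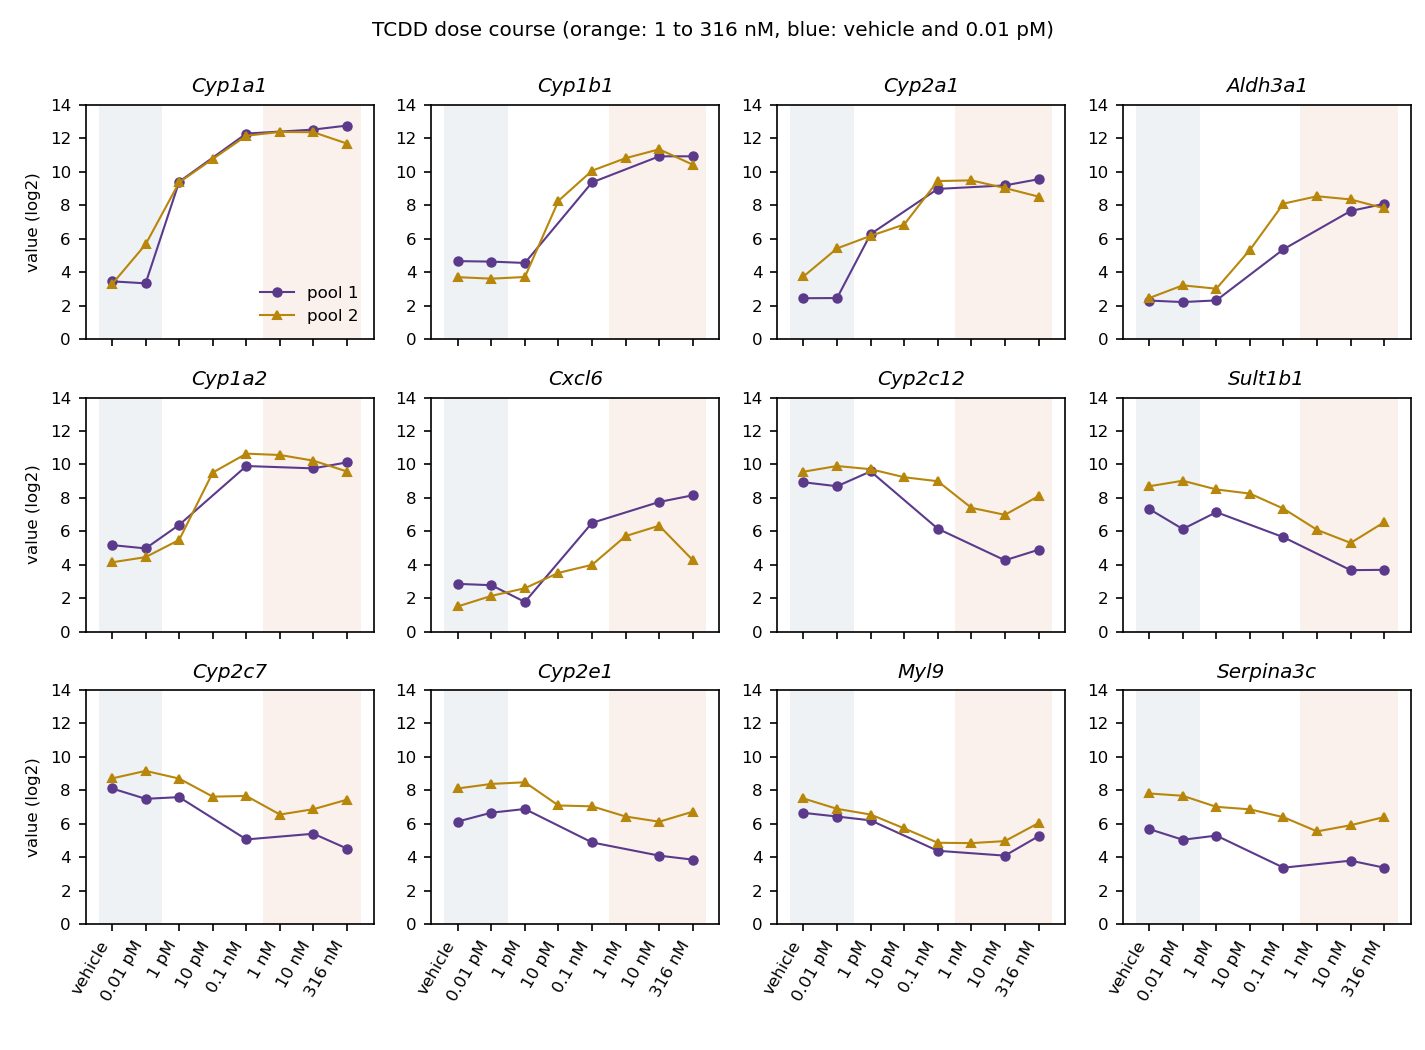
Expression value (log2) by TCDD dose, from vehicle to 316 nM, for the 6 genes that rose most and the 6 that fell most, with 1 point per array and lines joining arrays of 1 pool. Shading marks the baseline arrays (blue) and the high-dose arrays (orange), and the unshaded doses from 1 pM to 0.1 nM were not part of the comparison. Cyp1a1 and Cyp2a1 are above baseline in both pools at 1 pM, whereas Cyp1b1 is not.

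The intermediate doses were not used to call these genes, and on those arrays most called probe sets moved the same way. At 0.1 nM 75 of the 84 risen probe sets (89.3%) were higher than at 1 pM in both pools, against 53.8% of all probe sets. Of the 107 fallen probe sets 91 (85.0%) were lower at 0.1 nM than at 1 pM in both pools, against 1399 of all 8740. The median level of the risen probe sets in pool 2 was 5.76 with vehicle, 6.12 at 0.01 pM, 6.65 at 1 pM, 7.33 at 10 pM, 8.52 at 0.1 nM, 8.64 at 1 nM, 8.58 at 10 nM and 7.90 at 316 nM. It thus reached its high level at 0.1 nM. In pool 1 it was 5.78, 5.34, 6.25, 7.34, 8.09 and 8.19 at the doses measured there, that is vehicle, 0.01 pM, 1 pM, 0.1 nM, 10 nM and 316 nM.

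Single genes reached that level at different doses. At 1 pM Cyp1a1 read 9.41 in pool 1 and 9.37 in pool 2, and at 0.1 nM 12.29 and 12.16, values within the range of the high-dose arrays. Cyp1b1 read 4.55 and 3.71 at 1 pM, within the range of its 4 baseline arrays, and 9.37 and 10.07 at 0.1 nM. Aldh3a1 differed between the pools at 0.1 nM, with 5.37 in pool 1 and 8.10 in pool 2. Cyp2c12 read 9.58 and 9.71 at 1 pM, and 6.15 and 8.99 at 0.1 nM, so that in pool 2 most of its fall lay above 0.1 nM. These courses rest on 1 array per dose and pool and were not tested.

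The baseline group joined vehicle and 0.01 pM TCDD, and the high-dose group joined 3 doses. For 0.01 pM minus vehicle 0 of 8740 probe sets (0.0%) passed in a limma model of all 26 arrays, with 110 at an unadjusted p below 0.05. The estimates were wide, with 1.13 (95% interval -2.70 to 4.96) for Cyp1a1 and 0.85 (-1.16 to 2.86) for Cyp2a1. In pool 2 the 0.01 pM array lay on the high-dose side of vehicle for 61 of 84 risen and 61 of 107 fallen probe sets, and in pool 1 for 49 and 50. Leaving out the vehicle array of pool 2 gave 17 calls, leaving out the 0.01 pM array of pool 2 gave 14 and leaving out the vehicle array of pool 1 gave 1.

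For 316 nM minus 10 nM 0 of 8740 (0.0%) passed and 354 had an unadjusted p below 0.05. Without the 316 nM array of pool 2 there were 49 calls, without the 10 nM array of pool 1 there were 4 and without that of pool 2 there was 1. In pool 2 the 316 nM array lay closer to baseline than both the 1 and 10 nM arrays for 77 of 84 risen and 88 of 107 fallen probe sets, and in pool 1 it lay closer to baseline than the 10 nM array for 34 and 42. Cyp1a1 had 12.77 and 11.69 at 316 nM against 12.53 and 12.37 at 10 nM, and Cxcl6 had 8.15 and 4.27 against 7.75 and 6.33. Both genes were thus higher at 316 nM in pool 1 and lower in pool 2. Myl9 and Hal were among 3 of 54 called named genes with an unadjusted interval that excluded 0, with 1.12 (0.39 to 1.85) and -0.80 (-1.49 to -0.10), in each case closer to baseline at 316 nM.

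**Figure D4:**
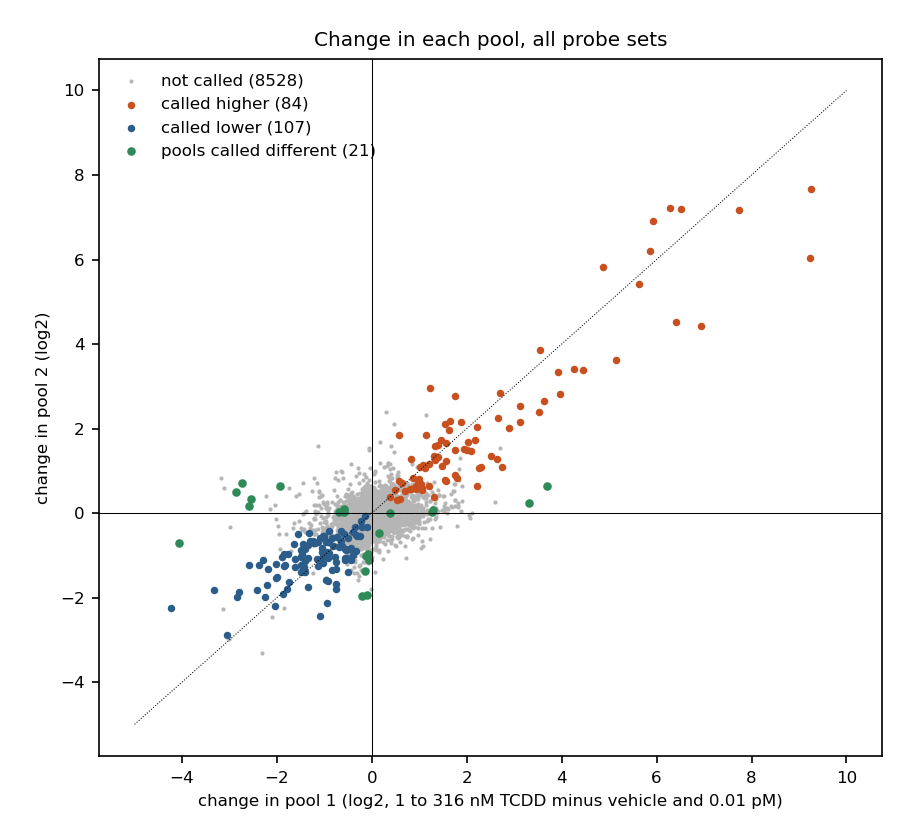
Change with high-dose TCDD (log2) in pool 1 (x axis) against the change in pool 2 (y axis), 1 point per probe set, with the dotted line marking equal change. Orange points are the 84 called higher, blue points the 107 called lower and green points the 21 where the pools were called different. Orange and blue points lie in the upper right and lower left quadrants, and green points lie away from the dotted line.

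The 2 pools of animals answered in the same direction for all called probe sets. All 84 risen and all 107 fallen probe sets had the same sign and no overlap within either pool, which the block fit favours by construction. Over all 8740, 9.43% had no overlap within either pool, 3.11% upward and 6.32% downward. The median size of the called changes was 1.32 in pool 1 and 1.09 in pool 2, and 124 of 191 were larger in pool 1.

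The change itself differed between the pools at 21 probe sets (0.24%) by the interaction term in limma, with 1336 at an unadjusted p below 0.05, and 0 of the 21 were among the 191. The count was 32 with arrays centred on their medians and 12 with a filter on dim probe sets. Abcd3, a peroxisomal fatty acid transporter, read 7.37 and 7.42 in pool 1 and 8.20, 8.83 and 8.49 in pool 2 at high dose, against 10.49 and 10.04 in pool 1 and 7.86 and 8.17 in pool 2. The pool 1 arrays were lower at high dose by 2.87 and the pool 2 arrays were higher by 0.49, a difference of 3.36 ± 0.35 (adjusted p = 0.00426). Its second probe set differed by 2.75. Avpr1a, a vasopressin receptor, changed by -0.21 in pool 1 and by -1.97 in pool 2, and its baseline was 3.57 to 3.63 in pool 1, below the median of all values, and 5.0 to 5.36 in pool 2. Acsm2 (-0.11 and -1.94) and Arrdc4 (-0.12 and -1.02) had the same pattern, with levels in pool 1 near that median in both groups. Mug1 (-4.06 in pool 1, -0.72 in pool 2) and 1 probe set of Gstp1, a glutathione transferase (3.31 and 0.24), had the larger change in pool 1. These last 2 genes were picked out after their values were seen.

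**Figure D5:**
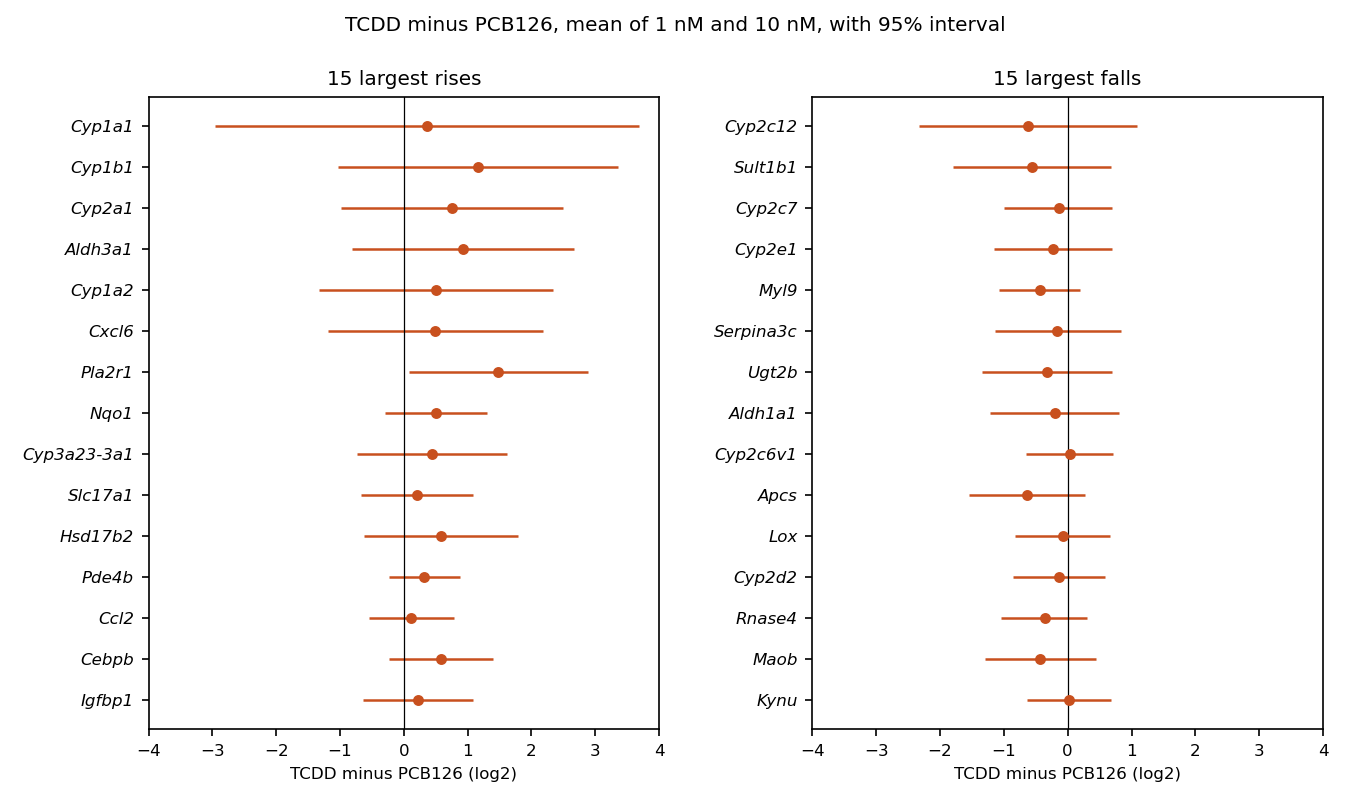
TCDD minus PCB126 (log2), as the mean over 1 and 10 nM, for the 15 genes that rose most (left) and the 15 that fell most (right) with high-dose TCDD. Points are limma estimates and lines 95% intervals. Of these 30 lines, that of Pla2r1 is the only one that does not cross 0.

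PCB126 is a coplanar chlorinated biphenyl that also binds AhR, and 3 arrays had it at doses matched to TCDD, 1 nM in pool 2 and 10 nM in both pools. The TCDD arrays at these doses are also among the high-dose arrays above, so the comparisons share them. For the mean of these doses, 0 of 8740 probe sets (0.0%) differed between TCDD and PCB126 in limma over all 26 arrays, and 83 had an unadjusted p below 0.05. Over the 191 called probe sets the median absolute difference was 0.24 with a median half-width of the interval of 0.63 and a largest difference of 1.83. Leaving out the 10 nM TCDD array of pool 1 or pool 2 or the 10 nM PCB126 array of pool 1 gave 4, 2 and 3 calls. A p above the threshold does not show that the compounds act alike.

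Cyp1a1 read 12.53 and 12.37 with 10 nM TCDD and 12.63 and 12 with 10 nM PCB126, and in pool 2 at 1 nM 12.39 and 11.79. The difference was 0.36 (95% interval -2.96 to 3.68). Cyp1b1 read 10.93 and 11.35 with 10 nM TCDD and 10.51 and 10.75 with 10 nM PCB126, and 10.82 and 9.0 at 1 nM. The difference was 1.16 (-1.03 to 3.36), with a standard error of 0.99 in this fit of 26 arrays, against 0.23 in the fit of 9. Cyp2c12 read 4.26 and 6.98 with 10 nM TCDD and 5.39 and 7.08 with 10 nM PCB126, and its difference was -0.62 (-2.33 to 1.08).

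The named genes were chosen on TCDD arrays that also enter this contrast, so the sign of their difference is not independent of that choice. The interval excluded 0, without adjustment, for 5 of the 54: Pla2r1 (1.48, 0.08 to 2.89), Ahr (0.57, 0.10 to 1.04), Pon1 (0.85, 0.33 to 1.37), Hal (0.71, 0.11 to 1.32) and Tat (0.47, 0.03 to 0.92). All 5 had an adjusted p of 1.0. Pon1 read 11.02 with 1 nM TCDD and 9.48 with 1 nM PCB126 in pool 2, but 10.70 and 10.63 against 10.49 and 10.49 at 10 nM, so most of its difference came from the 1 nM dose.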

How the data were processed

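The values are log2 expression values on an oligonucleotide array with 8799 probe sets, as the authors deposited them, 1 column per array, from -1.43 to 15.01. GCRMA 2.8.0 and RMA are named per the submitters' processing notes, and how they were set is not given in the sources used here. Which of the tools made the values is not stated, and how it treats dim signals was not tested. The values were used without further normalization. The 59 control probe sets were left out, and 8740 were tested without a filter. Of these 7006 list 1 gene, 308 several and 1426 none, 4736 genes are represented by their probe set with the highest mean, and a probe set whose ID ends in _s or _f may match relatives of its gene. 0 columns lacked a sample.

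Changes were fitted with limma 3.58.1 under R 4.3.3 (linear models, then eBayes with trend and robust set, 6 residual degrees of freedom, median prior 5.03), as high-dose minus baseline with pool as a fixed block, and adjusted by Benjamini-Hochberg over all 8740 probe sets at 0.05. The pairing comes from the labels, which give the pool of animals, and deviations of arrays of 1 pool from group means correlated at 0.666 to 0.822 over 4 groups. The pool difference was an interaction term (pool 2 minus pool 1), and dose and PCB126 contrasts came from a model of 15 groups and pool over all 26 arrays. The fits were tested on simulated data. No 2 arrays were identical (highest correlation among the 9 arrays 0.9973).

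Named genes are the 15 largest rises and falls called with 1 sign over the pools and above the median of all values, 3.71, in at least 1 group, the AhR battery, up to 4 called members of each of 26 lists (up to 2 with the smallest p where none was called) and up to 4 pool differences. Further list members are named beside counts of 5 or fewer or as background after their values were seen. The groups, lists and tests were chosen with earlier results of these data known. The number of arrays limits the precision. Alternatives changed the filter, the centring, the pool term, the arrays in each group and the eBayes settings, and left out each array in turn. Those arrays that stood apart in pool 2 were left out together as an alternative chosen after seeing the data.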

Additional observations from a re-analysis of the deposited data

Results flagged for a closer look

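Across 144 groups of values (72 named genes, high-dose and baseline arrays), 2 held an array far from the others in its group. A search over many groups can find such gaps by chance, and the rate for genes chosen this way was not computed. Both were the 0.01 pM array of pool 2. Cyp1a1 read 5.66 there, against 3.28 to 3.45 on the other baseline arrays, and Nrg1 read 7.35, against 6.47 to 6.62. Cyp2a1 and Cyp3a23-3a1 were also highest on that array among the baseline arrays, with 5.42 and 7.27. For 4 genes the change differed between the pools by the interaction term in limma, each with an adjusted p of 0.00426. The change in pool 2 minus that in pool 1 was 3.36 for Abcd3, where the pools moved in opposite directions, -1.76 for Avpr1a, -1.82 for Acsm2 and -0.90 for Arrdc4. A cause of these differences was not tested, and pool, animals and culture cannot be told apart.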

How the results depend on the processing

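The count of 191 probe sets was 236 with a filter on dim probe sets, 148 with arrays centred on their medians (74 higher and 74 lower, against 84 and 107), 252 with pool as a random block, 180 without trend and robust, 197 with all 26 arrays in the fit and 189 without 316 nM. It moved further to 89 with vehicle and to 69 with 0.01 pM as the only baseline, to 122 without 1 nM, to 43 in pool 1 alone and to 843 in pool 2 alone. With no replicate block, that is without pairing by pool, it was 49. Leaving out 1 array gave 116 to 283. Without the 0.01 pM and 316 nM arrays of pool 2 it was 152. 0 called probe sets changed sign in any of these fits. The pool difference of 21 probe sets was 32 with centred arrays, 12 with the filter and 16 without trend and robust. The counts of 0 for 0.01 pM against vehicle, 316 nM against 10 nM and TCDD against PCB126 stayed 0 with the filter, with centring and with no replicate block. Leaving out 1 array gave 0 to 17, 0 to 49 and 0 to 4 calls, and the groups at 1 nM, of 1 array each, could not be left out. Abcd3, which was not called, reversed to 0.49 in pool 2 alone.

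Of 54 called named genes 5 kept their call under all 23 alternatives, 38 kept it without any one array and 0 changed sign, and of 18 uncalled ones 15 were called somewhere. Of 598 counts of list members under alternatives, 399 stayed within 1.5 times the count given and 199 did not. The cause of these shifts was not tested. Signals close to the median of all values, and 2 pools, limit what the array can show.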
